A study of Mus musculus with 8 samples.

Results

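The endogenous inhibitors of metalloproteinases examined here were 6 genes: Timp1, Timp2, Timp3 and Timp4, which encode the tissue inhibitors of metalloproteinases, Reck, which encodes a membrane-anchored inhibitor, and A2m, which encodes alpha-2-macroglobulin. They were chosen by symbol in the platform's probe annotation. All 6 were found among 22180 genes measured, each with 1 probe set of its own. RNA came from cultured primary chondrocytes, the matrix-making cells of articular cartilage, which were isolated from the femoral and tibial joint ends of wild-type ICR mice aged 5 days. The tested cells carried an adenovirus that expresses the zinc importer ZIP8 (Ad-Zip8, 4 arrays), and the control cells carried an empty adenovirus (Ad-null, 4 arrays), so that both groups were infected. RNA was taken 24 h after infection. The labels call the arrays biological replicates without naming animals or pools, so the p-values speak only for the spread among these 8 arrays, which may be technical. The labels used here do not give the promoter that drives ZIP8.

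Cartilage turnover depends on the balance between metalloproteinases and their inhibitors. Each TIMP binds the zinc-containing catalytic site of a metalloproteinase and blocks it. TIMP1, TIMP2 and TIMP4 are soluble, whereas TIMP3 is held in the extracellular matrix and also blocks the aggrecan-cleaving enzymes ADAMTS4 and ADAMTS5 and the sheddase ADAM17. RECK restrains MMP9, MMP14 and ADAM10 at the cell surface, and alpha-2-macroglobulin traps proteases of all classes and hands them to the receptor LRP1 for uptake.

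The array values are on the log2 scale, so that a difference of 1 is a doubling. A gene passed the test at an adjusted p under 0.05 in limma's moderated linear model over all 22180 genes (Benjamini-Hochberg adjustment, two-sided), which 10.6% of genes did, 5.48% higher and 5.12% lower with Ad-Zip8. That share depended on expression level: with the dimmer genes left out it was 26.3% of 11090 genes. The filter kept genes with a mean of at least 5.64 over all 8 arrays. A gene bright in only 1 group could thus be kept because of its change, so counts after the filter are no separate support. Slc39a8, the gene of ZIP8, read 10.90 to 11.24 on the Ad-Zip8 arrays, against 6.12 to 6.27 on the Ad-null arrays as labelled. Defining chondrocyte markers such as Col2a1 (mean 13.2 with Ad-Zip8 and 13.5 with Ad-null) and Sox9 (12.02 with Ad-Zip8 and 12.20 with Ad-null) were among the highest values on the arrays. Chondrocyte markers averaged 11.01 to 11.28 per array with Ad-Zip8 and 11.68 to 11.74 with Ad-null, and 12 of 16 fell. Of 12 macrophage markers 2 rose (Cd14 and Cd68) and 1 fell (Laptm5), with list means of 4.96 to 5.07 with Ad-Zip8 and 4.87 to 4.92 with Ad-null, and the pan-leukocyte gene Ptprc averaged 3.22 with Ad-Zip8 and 3.39 with Ad-null, below the median of every array. None of 8 endothelial markers passed, with list means of 4.56 to 4.69 with Ad-Zip8 and 4.51 to 4.61 with Ad-null. Of 12 fibroblast markers 3 rose (Lum, Dcn, Pdgfra) and 4 fell (Tnc, Acta2, Col1a2, Col5a1), with list means of 9.65 to 9.79 with Ad-Zip8 and 9.59 to 9.82 with Ad-null. In RNA from whole cultures, fewer cells of a type and less RNA per cell cannot be told apart.

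The inhibitors split. Timp1 rose 1.74-fold with Ad-Zip8, Timp3 fell 1.34-fold, and Timp2, Timp4, Reck and A2m did not pass. Of the 6, 33.3% passed, against 10.6% of all genes, or 26.3% with the dimmer genes left out. With so few genes these shares cannot be told apart. The median log2 change of the 6 was -0.04, against -0.02 over all genes. The promoters of both genes that passed are shown because their sequence content can be set beside that split. They are RefSeq sequences of assembly GRCm38.p6, running from 250 bases before to 50 bases after the annotated start site, 5′ to 3′ on the gene's own strand, at chrX:20869916-20870215 (plus strand) for Timp1 and chr10:86300162-86300461 (plus strand) for Timp3. Capitals mark matches to the motifs described after them.
Timp1: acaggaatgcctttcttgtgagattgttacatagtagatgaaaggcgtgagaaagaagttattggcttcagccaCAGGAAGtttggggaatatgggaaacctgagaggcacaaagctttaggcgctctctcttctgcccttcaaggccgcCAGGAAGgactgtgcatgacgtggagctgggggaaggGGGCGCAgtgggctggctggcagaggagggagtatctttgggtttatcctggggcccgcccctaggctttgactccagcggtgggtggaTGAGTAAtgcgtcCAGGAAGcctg
Timp3: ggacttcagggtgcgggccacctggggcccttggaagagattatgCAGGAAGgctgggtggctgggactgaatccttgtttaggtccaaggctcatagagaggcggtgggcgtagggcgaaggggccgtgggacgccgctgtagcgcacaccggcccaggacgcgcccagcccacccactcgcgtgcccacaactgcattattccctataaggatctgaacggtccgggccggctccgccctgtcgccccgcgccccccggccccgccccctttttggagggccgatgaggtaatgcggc

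The motifs searched on both strands were those of AP-1 (TGANTCA, and the variant TGAGTAA), the core of the metal response element bound by the zinc sensor MTF-1 (TGCACNC or TGCGCNC), STAT (TTCNNNGAA), Runx (TGTGGT) and Ets (CAGGAAG). Timp1 held the AP-1 variant at bases 27 to 33 after its annotated start. Of 32851 promoters of this length, 2.68% hold that variant anywhere. The motifs were chosen with earlier results of these data known, so that share is not the chance of this match. It also held 3 Ets matches (13.3% of promoters hold at least 1) and, on the minus strand at bases -63 to -57, the metal response core TGCGCNC (15.4% of promoters). Timp3 held 1 Ets match, at bases -205 to -199, and none of the other motifs. Timp2, whose level hardly differed, held 2 matches to TGCGCNC, Timp4 held 1 Ets match, and Reck held none of the motifs. No match overlapped another. The STAT and Runx motifs, the core TGCACNC and the AP-1 motif TGANTCA had no match in these 5 promoters. A match says only that the letters are present.

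**Figure D1:**
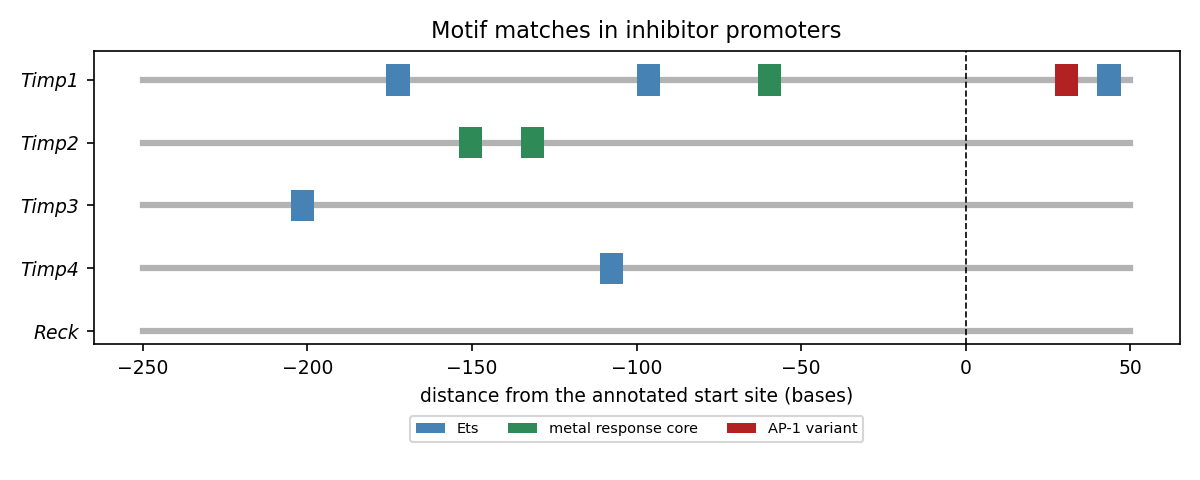
Positions of the motif matches in the promoters of 5 inhibitor genes, with distance in bases from the annotated start site (dashed line) on the horizontal axis and a row for each gene. Coloured blocks are matches on either strand. Timp1 carries 3 Ets matches, 1 metal response core and 1 AP-1 variant, Timp3 carries 1 Ets match, and Reck carries none.

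Timp1, the most readily induced of the family, was higher on every Ad-Zip8 array. Replicates 1 to 4 read 10.98, 10.71, 10.85 and 10.65 with Ad-Zip8, against 10.22, 9.87, 10.12 and 9.79 with Ad-null. The groups did not overlap (17.6% of all genes had groups apart), and the order of the replicate numbers, 1, 3, 2, 4 from high to low, was the same in both groups. Between arrays of the same number Timp1 differed by 0.76, 0.84, 0.73 and 0.87, a narrower range than the spread within either group. Timp1 averaged 10.8 ± 0.15 with Ad-Zip8 and 10.0 ± 0.20 with Ad-null (SD, n = 4 each), so that the log2 change was 0.80 (SE 0.12, 95% interval 0.54 to 1.06, limma adjusted p = 0.00169). The change of Timp1 was larger than that of 98.2% of genes. Timp1 lies on the X chromosome, and the X-linked transcript Xist, looked up after Timp1's values were seen, had overlapping groups (log2 change -0.11, limma adjusted p = 0.675). Whether the sex of the animals had a part in the change of Timp1 was not tested.

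Timp3, the matrix-bound inhibitor, moved the other way. Its values were 12.27, 12.30, 12.34 and 12.23 in Ad-Zip8 replicates 1 to 4, against 12.75, 12.71, 12.69 and 12.70 in Ad-null replicates 1 to 4. The control arrays lay closer together for Timp3 than for any other of the 6 genes, and every Ad-Zip8 array lay below every Ad-null array. Timp3 averaged 12.3 ± 0.05 with Ad-Zip8 and 12.7 ± 0.03 with Ad-null (SD, n = 4 each), and fell by 0.43 on the log2 scale (SE 0.06, limma adjusted p = 0.00202). The 95% interval of the change ran from -0.57 to -0.28. Differences are compressed near the top of an array's range, so the size of the fall is uncertain. Among the genes that passed, 606 had a more negative change than Timp3. Chondrocyte markers fell beside it (12 of 16, median log2 change -0.49, with Matn1, Col9a3, Matn3 and Hapln1 at the smallest adjusted p), and their part in the change of Timp3 was not tested.

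Timp2, the soluble inhibitor that also helps MMP14 to activate MMP2, read 11.43, 11.37, 11.24 and 11.29 with Ad-Zip8, against 11.35, 11.40, 11.28 and 11.24 with Ad-null. The groups overlapped almost fully, and 2 of 4 pairs of equal replicate number were higher with Ad-Zip8. Its log2 change was 0.02 (SE 0.07, limma adjusted p = 0.928). The 95% interval, -0.15 to 0.18, bounds how far Timp2 could have moved and does not show that it was unaltered.

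Timp4, known chiefly from heart and brain, lay below the array medians in every sample, at 3.94, 3.91, 3.91 and 3.91 with Ad-Zip8 against 3.91, 3.91, 3.74 and 3.89 with Ad-null. At such values a probe set may report background, and no detection calls were used here. The log2 change was 0.05 (SE 0.07, limma adjusted p = 0.724, 95% interval -0.10 to 0.20). No weight can be put on the order of its values.

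Reck, a cell-surface inhibitor that also serves as a co-receptor for WNT7, read 9.65, 9.49, 9.58 and 9.52 with Ad-Zip8, against 9.71, 9.69, 9.68 and 9.52 with Ad-null. Each Ad-Zip8 array was below the Ad-null array of its number, but by as little as 0.001 for replicate 4, and the groups overlapped. The log2 change was -0.09 (SE 0.07, limma adjusted p = 0.545, 95% interval -0.26 to 0.08).

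A2m was the most variable of the 6. It read 7.78, 7.93, 7.82 and 8.20 with Ad-Zip8, against 8.05, 7.97, 7.84 and 8.48 with Ad-null. Replicate 4 was the highest in both groups, so that the spread across replicate numbers exceeded the difference between the groups. All 4 pairs were lower with Ad-Zip8, by 0.26, 0.04, 0.02 and 0.29 for replicates 1 to 4. The log2 change was -0.15 (SE 0.14, limma adjusted p = 0.602, 95% interval -0.48 to 0.17), and with the replicate number as a block its adjusted p was 0.284. Without Ad-null replicate 4 the log2 change was -0.02.

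**Figure D2:**
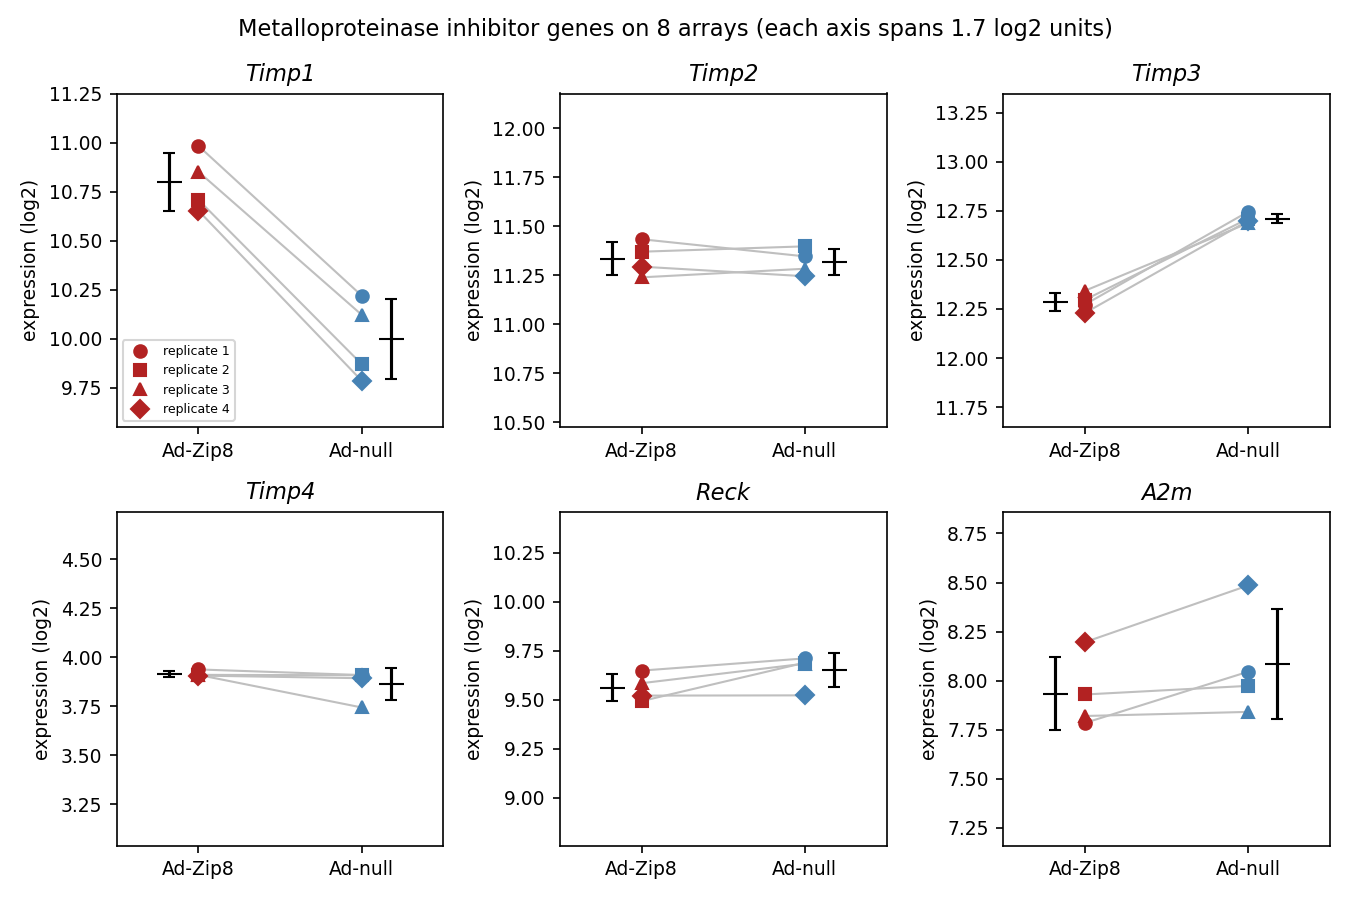
Expression (log2) of the 6 inhibitor genes on each array, Ad-Zip8 in red at the left of each panel and Ad-null in blue at the right. Marker shapes are replicate numbers, grey lines join arrays of equal number, and black bars are the mean ± SD (n = 4). Timp1 is higher and Timp3 lower on every Ad-Zip8 array, and the groups overlap for Timp2, Timp4, Reck and A2m.

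Timp1 and Timp3 differed from each other in their response. The log2 change of Timp1 exceeded that of Timp3 by 1.22 (SE 0.11, limma adjusted p = 3.77e-05 in the fit of each gene relative to Timp3). Timp2, Reck and A2m lay between them, and Timp4, which may read background, is left aside here. Relative to Timp1, 96% of genes passed in either direction in the moderated fit. Timp2 changed by -0.78 on the log2 scale, Reck by -0.89 and A2m by -0.95, all past the test with and without moderation of the variances, but 95.2% of all genes were lower than Timp1 too. Relative to Timp3, 80.1% of genes passed in either direction. Timp2 (0.44) and Reck (0.34) were higher, as were 79% of all genes, and A2m (0.27, limma adjusted p = 0.119) did not pass. A2m did pass with the replicate block (adjusted p = 0.0128) and without Ad-null replicate 4 (0.0179).

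The genes whose pattern was most like each inhibitor's were found by Pearson correlation of log2 values over the 8 arrays, which share their groups and their scaling. For Timp1 these were Tfdp2 (r = 0.993), Ncaph (0.992) and Lox, the gene of a collagen cross-linking enzyme (0.991), and all 3 rose with Ad-Zip8, Lox by 1.15 on the log2 scale. Deviations from the group means of these genes followed those of Timp1 at r = 0.938 to 0.953. The genes were picked over the same 8 arrays, so r over deviations, here and for Timp3, is no separate evidence. For Timp3 they were Necab3 (0.995), Klf12 (0.994) and B3galt1 (0.993), all lower with Ad-Zip8, with r = 0.836 to 0.938 over deviations. Timp2 was closest to Dcakd (0.978), Med15 and Slc22a30, and Timp4 to Rnf130 (0.996), Tmem213 and Sult2a4. Timp4 may read background and Ad-null replicate 3 stood apart from its other arrays, so no weight can be put on its r. Reck was closest to Hps1 (0.976), Tbcel and Unc13a, and A2m to Gtf3c4 (0.951), Tram1l1 and Mrpl3. None of the genes named for these 4 inhibitors passed the test between groups.

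The enzymes that these proteins block were read from the same fit. Of 22 matrix metalloproteinase genes measured, 7 rose, 1 fell and 14 did not pass, so that 36.4% passed against 10.6% of all genes, with a median log2 change of 0.11. With dim genes left out, 7 of 12 passed, against 26.3% of the genes then tested. Mmp3, Mmp9 and Mmp10 averaged 5.38, 5.27 and 5.34 with Ad-null, under the filter's cut of 5.64, and were kept through their Ad-Zip8 values. Mmp3, the gene of stromelysin 1, read 11.82, 10.92, 11.29 and 11.47 with Ad-Zip8 against 5.73, 4.75, 5.09 and 5.97 with Ad-null. Mmp13, the gene of collagenase 3, read 12.98, 12.78, 12.89 and 12.87 with Ad-Zip8 against 8.26, 7.87, 8.49 and 9.26 with Ad-null. On neither gene did any array of one group come near the other. Mmp9, a gelatinase gene, averaged 7.47 ± 0.17 with Ad-Zip8 and 5.27 ± 0.43 with Ad-null, and Mmp12, the macrophage elastase gene, 6.22 ± 0.21 with Ad-Zip8 and 4.24 ± 0.27 with Ad-null (SD, n = 4 each).

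Mmp2, the constitutive gelatinase that Timp2 helps to activate, averaged 10.3 ± 0.15 with Ad-Zip8 and 9.66 ± 0.06 with Ad-null (1.59-fold higher, limma adjusted p = 8.59e-04). Mmp14, the gene of the activator of MMP2 at the cell surface, had a log2 change of -0.04 (limma adjusted p = 0.910). The member that fell was Mmp16, another membrane-type enzyme (log2 change -0.79, limma adjusted p = 3.54e-04). Mmp10 (0.83, adjusted p = 0.0186) and Mmp19 (0.72, adjusted p = 0.0399) were less stable. Mmp10 did not pass without Ad-null replicate 1, 2 or 4 (adjusted p up to 0.0578), and Mmp19 did not pass in 6 of the 8 fits with 1 array left out, all but those without Ad-Zip8 replicate 2 or Ad-null replicate 4 (adjusted p up to 0.0994), nor with repeated quantile normalization (0.0599).

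Of 26 ADAM and ADAMTS genes measured, 4 rose, 6 fell and 16 did not pass (38.5% passed, against 10.6% of all genes, median log2 change 0.02). With dim genes left out, 12 of 15 passed, against 26.3% of all genes tested. Adamts7 (5.33 with Ad-null), Adamts3 (5.33 with Ad-Zip8) and Adamts6 (5.43 with Ad-Zip8) averaged under the filter's cut of 5.64 in that group. Each was kept through its values in the other group. Those that rose include main targets of TIMP3. Adamts5, the gene of the main aggrecanase in mouse cartilage, averaged 7.42 ± 0.33 with Ad-Zip8 and 5.89 ± 0.33 with Ad-null (SD, n = 4 each). Adam17, the gene of the TNF-releasing sheddase, rose 1.76-fold (limma adjusted p = 2.37e-04), Adamts7, whose product cleaves COMP, 1.83-fold (adjusted p = 0.00669) and Adam9 1.40-fold (adjusted p = 0.00293). Adamts4, the other aggrecanase gene that TIMP3 restrains, had a log2 change of 0.08 (adjusted p = 0.780), and Adam10, a RECK target, of 0.29 (adjusted p = 0.0505). Adam10 passed with dim genes left out (adjusted p = 0.0143), with repeated quantile normalization (0.0313), with a variance trend (0.0108) and without Ad-null replicate 2 (0.0217). The 6 that fell were Adamts3, Adamts6, Adamts10, Adamts12, Adamts14 and Adam12, by 0.42 to 0.81 on the log2 scale. Adamts14 has 2 probe sets, and with their mean its log2 change was -0.35 (adjusted p = 0.0191), against -0.57 with the brighter one. Adamts3 and Adamts14 encode procollagen N-propeptidases. Of these, Adam12 did not pass without Ad-Zip8 replicate 1 or 4 or Ad-null replicate 1 or 2 (adjusted p up to 0.0548), and Adamts10 did not pass without Ad-Zip8 replicate 3 or 4 or Ad-null replicate 1, 2 or 4 (adjusted p up to 0.0790).

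**Figure D3:**
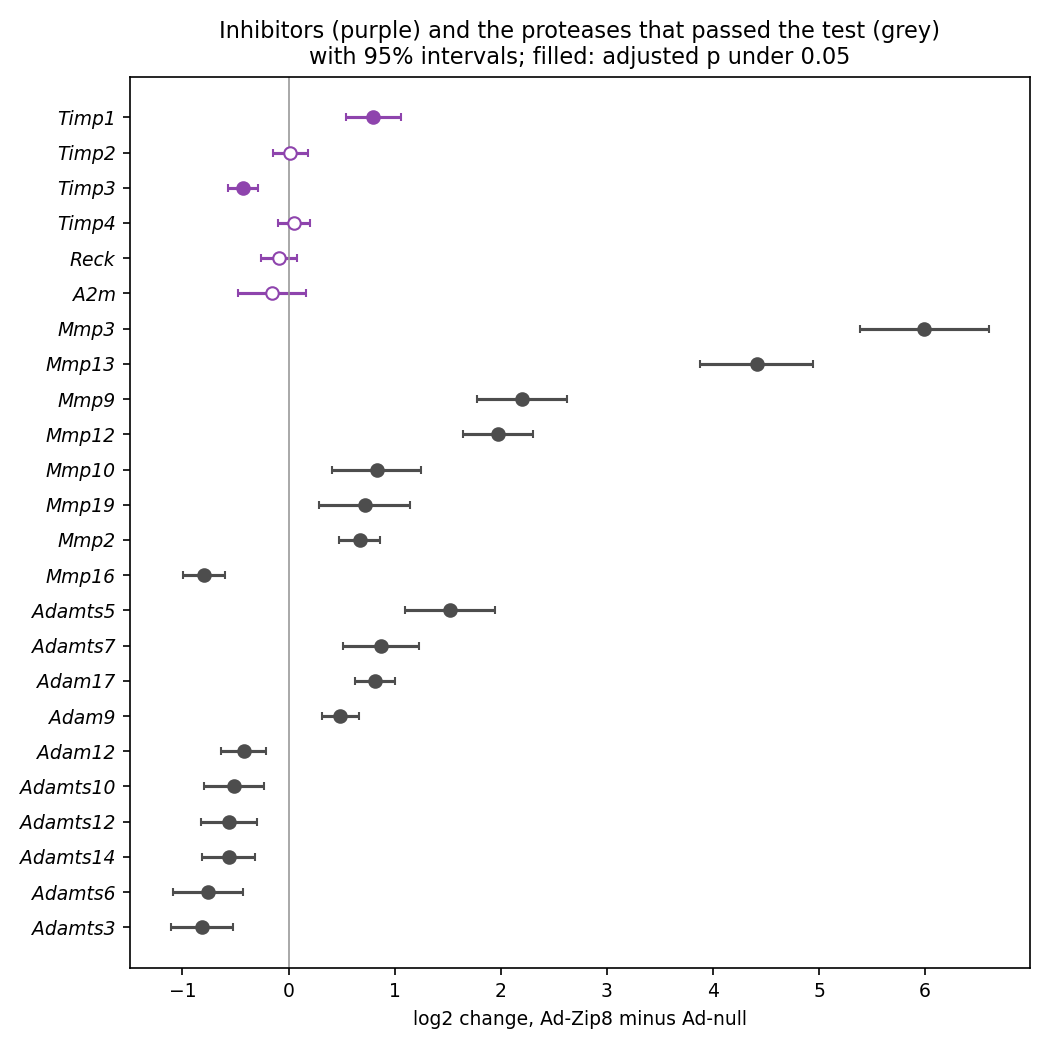
Log2 change, Ad-Zip8 minus Ad-null (horizontal axis), of the 6 inhibitor genes in purple and of the 18 protease genes that passed the test in grey, with 95% intervals. Filled points have an adjusted p under 0.05. Mmp3 (5.99) and Mmp13 (4.41) lie far to the right of Timp1 (0.80), and the interval of Timp3 lies below 0.

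Whether a protease gene changed more than Timp1 or Timp3 was tested in fits relative to each. The inhibitor's log2 value was subtracted from that of each gene on the same array, and all genes were refitted. Offsets between probe sets cancel in the group difference, so that this compares changes and not amounts. The fits take no account of which protease an inhibitor blocks, and ADAMTS5 and ADAM17 were named above as targets of TIMP3. Relative to Timp1, 0.807% of genes were higher in the moderated fit. Among the metalloproteinases 4 of 22 were, namely Mmp3 by 5.19, Mmp13 by 3.61, Mmp9 by 1.40 and Mmp12 by 1.18 on the log2 scale. Mmp12 read below the array medians on every Ad-null array, so the size of its change is uncertain, and it was not tested with dim genes left out. With Ad-null, Mmp3 (4.75 to 5.97) and Mmp9 (4.75 to 5.79) lay partly near the array medians of 5.04 to 5.11. The sizes of their changes are therefore uncertain too. Among ADAM and ADAMTS genes 1 of 26 was higher than Timp1, Adamts5 by 0.72. All 5 also passed when each gene kept its own variance, Adamts5 with the largest adjusted p (0.0394). Mmp2 (-0.13), Mmp10 (0.03), Mmp19 (-0.08), Adam17 (0.01), Adamts7 (0.07) and Adam9 (-0.31) rose in the comparison of the groups but did not pass relative to Timp1 (SE 0.19 for each). Adam9 did pass as lower than Timp1 with the replicate block, with a variance trend and without moderation (adjusted p = 0.0235 in the last).

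Relative to Timp3, which fell, 20 of 22 metalloproteinase genes and 17 of 26 ADAM and ADAMTS genes were higher, a result that 79% of all genes shared. Adam17 exceeded it by 1.24 (SE 0.09, limma adjusted p = 1.11e-05) and Adamts5 by 1.95 (SE 0.20, limma adjusted p = 6.71e-05). Only 1.01% of all genes were lower than Timp3 in change. Mmp16 was 1 of them (-0.37, adjusted p = 0.00413), and Adamts3 another (-0.39, adjusted p = 0.0202). Adamts3 did not pass without Ad-Zip8 replicate 2 or Ad-null replicate 1 or 3 (adjusted p up to 0.0555) or when each gene kept its own variance (adjusted p = 0.0534).

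**Figure D4:**
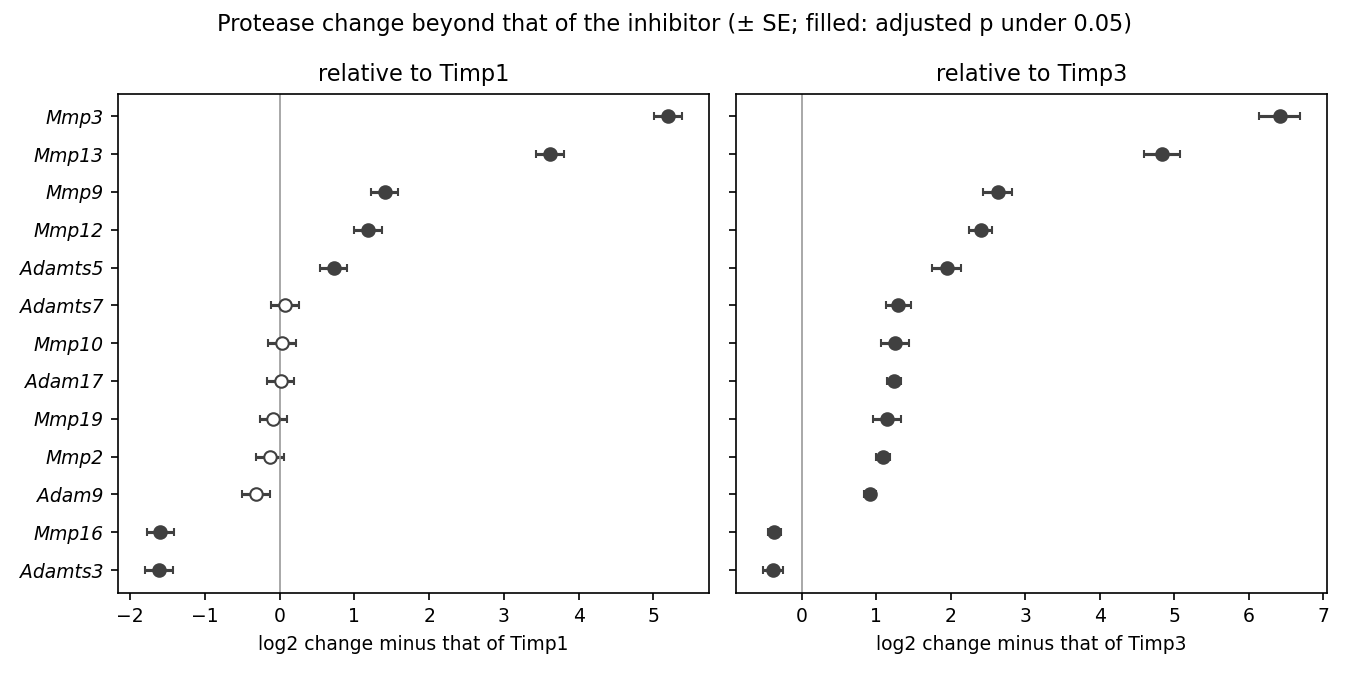
Log2 change of 13 protease genes minus that of Timp1 (left) and minus that of Timp3 (right), with SE bars. Both fits were moderated, and on the left every gene has the same SE. Filled points have an adjusted p under 0.05. Mmp3, Mmp13, Mmp9, Mmp12 and Adamts5 lie above 0 on the left, and on the right Mmp16 and Adamts3 alone lie below 0.

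The alpha-2-macroglobulin family and its clearance route gave 1 higher and 1 lower gene of 8 measured. The share that passed, 25%, compares with 10.6% of all genes and with 26.3% once dim genes were left out, where 2 of 3 family genes passed. Pzp, the gene of the murine relative of A2m that circulates in plasma, read 4.51, 4.53, 4.57 and 4.47 with Ad-Zip8 against 4.09, 4.13, 3.94 and 4.33 with Ad-null. The groups were apart (limma adjusted p = 0.0169), yet every value was below the array medians. Cd109, a membrane-bound family member, fell 1.18-fold (adjusted p = 0.0416) but did not pass in any of the 8 fits with 1 array left out (adjusted p from 0.0504 to 0.108) or with the replicate block (0.0721) or repeated quantile normalization (0.0704). The receptor gene Lrp1 (0.08, adjusted p = 0.642) and the gene of its chaperone, Lrpap1 (-0.27, adjusted p = 0.0656), did not pass. Lrpap1 did pass with dim genes left out (0.0191) and with a variance trend (0.0199).

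Of 10 other genes linked to the inhibition of metalloproteinases or metallopeptidases, 1 rose and 2 fell (30% passed, against 10.6% of all genes). A place in this list does not mean that the product is itself an inhibitor. With dim genes left out 2 of 4 passed, against 26.3% of all genes tested, and so few genes cannot be told apart from these shares. Rarres1, related to the carboxypeptidase inhibitor latexin, averaged 6.33 ± 0.10 with Ad-Zip8 and 7.25 ± 0.24 with Ad-null (SD, n = 4 each), 1.89-fold lower (limma adjusted p = 8.43e-04). Spock2, the gene of testican 2, had a log2 change of -0.54 (adjusted p = 0.0349), and Tfpi2, a Kunitz-type inhibitor gene, of 0.45 (adjusted p = 0.0400). Spock2 did not pass in 6 of the 8 fits with 1 array left out, all but those without Ad-Zip8 replicate 1 or Ad-null replicate 4 (adjusted p up to 0.0917). Tfpi2 did not pass in 5, all but those without Ad-Zip8 replicate 2 or Ad-null replicate 2 or 4 (adjusted p up to 0.112), nor with the replicate block (0.0970).

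Among 16 surface partners of the TIMPs and RECK, 1 rose, 3 fell and 12 did not pass (25% passed, against 10.6% of all genes). With dim genes left out 5 of 13 passed, against 26.3% of all genes tested. Cd44, the hyaluronan receptor gene, read 7.16, 6.72, 6.72 and 6.70 with Ad-Zip8 against 5.57, 5.68, 5.57 and 5.62 with Ad-null (2.33-fold higher, limma adjusted p = 9.21e-05). Adgra2, whose product works with RECK in WNT7 signalling, read 6.72, 6.71, 6.69 and 6.64 with Ad-Zip8 against 7.22, 7.22, 7.24 and 7.07 with Ad-null (1.41-fold lower, limma adjusted p = 0.00127), while Reck itself did not pass. The integrin gene Itga3 (-0.38, adjusted p = 0.0216) and the angiotensin receptor gene Agtr2 (-0.46, adjusted p = 0.0325) also fell. Itga3 did not pass without Ad-Zip8 replicate 2, 3 or 4 or Ad-null replicate 1 or 2 (adjusted p up to 0.0627). Agtr2 did not pass without Ad-Zip8 replicate 1, 2 or 3 or Ad-null replicate 1, 2 or 4 (adjusted p up to 0.0895) or with the replicate block (0.0651). Cd63, the tetraspanin gene whose product binds TIMP1, had a log2 change of 0.22 (adjusted p = 0.101). Cd63 passed with dim genes left out (adjusted p = 0.0305), with repeated quantile normalization (0.0311) and with a variance trend (0.0217).

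Timp1, Timp3 and Timp4 each lie within a synapsin gene, Syn1, Syn3 and Syn2 in that order, and Cep295nl lies within Timp2. None of these overlapping genes passed (0 of 4, against 10.6% of all genes), and 4 genes are too few to read that count. Syn2 read below the array medians on every array and Syn3 near them, so both may report background. The log2 change was -0.02 for Syn1, -0.09 for Syn3, -0.04 for Syn2 and 0.05 for Cep295nl.

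Among 27 measured factors reported to act on Timp1 or Timp3 transcription, 10 rose, 3 fell and 14 did not pass (48.1% passed, against 10.6% of all genes). With dim genes left out 14 of 23 passed, against 26.3%. Osmr, a receptor gene of the IL-6 family, rose 2.12-fold (log2 change 1.08, SE 0.06, limma adjusted p = 8.58e-06), the shared receptor gene Il6st 1.48-fold and the cytokine gene Il6 3.78-fold, the last with a mean of 3.91 in Ad-null cells, below the array medians. Of the AP-1 genes, Junb rose 2.24-fold (adjusted p = 2.76e-05), Fosl2 1.88-fold, Fos 1.81-fold and Fosb 1.46-fold. Runx1 rose 3.52-fold (log2 change 1.81, SE 0.13, limma adjusted p = 2.74e-05). All 3 that fell belong to TGF-beta signalling: Tgfb2 fell 1.66-fold (adjusted p = 0.00113), while the log2 change was -0.59 for Tgfb3 and -0.41 for the receptor gene Tgfbr2. The other TGF-beta genes of the list (Tgfb1, Tgfbr1, Smad2, Smad3, Smad4 and Smad7) were not among those that passed. Lifr (0.42, adjusted p = 0.0224) and Stat3 (0.30, adjusted p = 0.0308) also rose. The cytokine genes Lif (0.23, adjusted p = 0.127), Osm (-0.17, adjusted p = 0.516) and Il11 (-0.03, adjusted p = 0.924) did not pass. Lifr did not pass without Ad-Zip8 replicate 3 or 4 or Ad-null replicate 1 or 2 (adjusted p up to 0.0648), and Stat3 did not pass in 6 of the 8 fits, all but those without Ad-Zip8 replicate 3 or Ad-null replicate 1 (adjusted p up to 0.0895), nor with arrays centred on their medians (0.0509). Whether any of these genes acted on an inhibitor gene was not tested.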

How the data were processed

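The authors deposited log2 values, 1 for each of 41345 probe sets on 8 arrays, and per the submitters' processing notes the method was RMA, which removes background, gives the arrays a common distribution and combines probes. A whole-transcript kit was used for labelling, per the labels' protocols. Version and genome build were not given in the sources used here. Of the probe sets, 23521 had 1 gene symbol, 1814 several and 16010 none listed. Where a gene had more than 1 probe set (1082 genes), the brightest on average was used. Entrez identifiers of 23328 probe sets were found in a GRCm38.p6 gene table, and 0 symbols changed.

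Groups were compared with limma 3.58.1 in R 4.3.3 (lmFit, eBayes), with no covariate and no filter, and p-values adjusted over all genes. The fits relative to Timp1 and Timp3 used the same model on differences within an array. Because all genes then share the spread of 1 inhibitor, moderation gave every gene the same SE relative to Timp1, whatever its own spread, and its adjusted p-values there are not printed. A fit without moderation, chosen after seeing the data, gave the p-values printed for that comparison. The shares, counts and filled points relative to Timp1 come from the moderated fit. Without moderation, 4 of 22 metalloproteinase genes and 1 of 26 ADAM and ADAMTS genes were again higher. Over 15 alternatives, the fit without moderation among them, 150 to 237 genes were higher than Timp1, against 179. The comparison of Ad-Zip8 with Ad-null over all genes was tried on simulated data, and the fits relative to Timp1 and Timp3 were not.

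Same-numbered arrays of the groups deviated together from their group means (r = 0.108 to 0.374, against -0.271 to 0.155 for other pairs), which is where the pairing comes from, since no label states it. The Y-linked genes Kdm5d and Uty, looked up after the values were seen, were lowest in replicate 2 of both groups. Correlations between arrays were 0.991 to 0.993 within and 0.979 to 0.986 between groups, so that no array repeats another. The number of arrays limits precision. Members, lists and motifs were chosen with earlier results of these data known. By rule the text names all members, Slc39a8, from each list at most 4 genes that passed (smallest adjusted p) and those it counts where 5 or fewer, and the 3 genes most like each member, leaving out predicted genes, small RNAs and receptor segments. Other list genes named were chosen after their values were seen. Promoters of 5 of 6 members matched RefSeq by symbol, and that of A2m is not used here.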

Additional observations from a re-analysis of the deposited data

Results flagged for a closer look

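In groups of 4 arrays, 12 of 114 groups of named genes had 1 array whose gap to the next, as a share of the group's range, exceeded Dixon's limit, which chance gives in about 5% of groups. Among the inhibitors, Timp4 read 3.94 in Ad-Zip8 replicate 1, against 3.91 in the others, and 3.74 in Ad-null replicate 3, against 3.89 to 3.91, both below the array medians. Reck read 9.52 in Ad-null replicate 4, against 9.68 to 9.71 in the other control arrays, and Adgra2, the gene of its partner, read 7.07 on the same array, against 7.22 to 7.24. Ad-Zip8 replicate 1 stood apart most often. It read 9.31 for Adam10 (9.20 to 9.21 in the others), 7.16 for Cd44 (6.70 to 6.72), 6.88 for Fos (6.30 to 6.38), 8.32 for Junb (8.13 to 8.16) and 4.86 for Syn3 (over 5 in the others). Adam12 read 6.23 in Ad-Zip8 replicate 2 (5.87 to 5.91 in the others), Adam17 8.01 in Ad-null replicate 3 (8.20 to 8.23) and Syn2 4.48 in Ad-null replicate 2 (4.32 to 4.35).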

How the results depend on the processing

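Under 14 alternatives (replicate block, dim genes left out, median centring, repeated quantile normalization, variance trend, mean of probe sets, and each array left out) Timp1 stayed higher (log2 change 0.73 to 0.87, adjusted p up to 0.00698) and Timp3 lower (-0.45 to -0.41, adjusted p up to 0.00999), and 1 inhibitor was higher and 1 lower in each. With the replicate block the adjusted p was 9.76e-04 for Timp1 and 0.00999 for Timp3, and over 184 genes (members, list genes and those most like a member) it ended 5 calls, those of Cd109, Tfpi2, Agtr2, Comp and Col5a1. Timp4 was not tested after dim genes were left out. Timp2 changed sign with median centring (-0.0049) and ranged from -0.0168 to 0.0479 with 1 array left out. Over all genes, leaving out 1 array gave 708 to 923 lower, against 1136, the fewest without Ad-Zip8 replicate 1 (708) and Ad-null replicate 1 (721). With 11090 genes tested after the filter on dim genes, 10389 were lower than Timp1 (21110 without it) and 9311 higher than Timp3 (17530). Other values near 0 changed sign. With repeated quantile normalization these were Mmp14 (0.00847) and, relative to Timp1, Mmp10 (-0.0471), Adam17 (-0.00728) and Adamts7 (-0.00877). With 1 array left out the log2 change ranged from -0.141 to 0.0555 for Mmp14, -0.0138 to 0.197 for Adamts4, -0.0540 to 0.0163 for Syn1 and -0.119 to 0.0260 for Syn2. Relative to Timp1 it ranged from -0.112 to 0.134 for Mmp10, -0.222 to 0.102 for Mmp19, -0.0794 to 0.105 for Adam17 and -0.0182 to 0.176 for Adamts7. The cause of these changes was not tested.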
